A study of Homo sapiens with 6 samples.

Results

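The spindle assembly checkpoint, the anaphase-promoting complex (APC/C) and the Aurora kinase complexes were described through 38 genes chosen by symbol, all of which were present among the 21857 genes of the deposited tables. They comprise 14 core subunits of the APC/C and 24 other genes. The 24 encode checkpoint proteins, APC/C activators and their inhibitor, and the ubiquitin-conjugating enzymes of the APC/C. They also encode separase, its inhibitor securin, the shugoshins (SGO1 and SGO2), and the Aurora kinases with their partners. RNA was measured in bulk in MV4;11, an established human acute myeloid leukemia line whose labelled genotype, shared by all libraries, is FLT3-ITD MLL-AF4. 3 libraries came from cells exposed to FKA (flavokawain A, a chalcone of the kava plant) at 10 µg/ml for 48 h, and 3 control libraries came from the same line without FKA. The labels put 1 FKA and 1 control library into each of 3 batches. They do not say whether the libraries of a group came from separate cultures, so the p-values measure the spread between these libraries.

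As background, the spindle assembly checkpoint holds a dividing cell before anaphase until every chromosome is attached to the spindle. Unattached kinetochores assemble an inhibitor around MAD2 and BUBR1 that captures CDC20, the mitotic activator of the APC/C. Once released, the APC/C marks securin and cyclin B for destruction, separase cuts cohesin, and the related activator CDH1 (gene FZR1) then keeps the complex active through G1. Aurora A builds the spindle poles with TPX2, while Aurora B works within the chromosomal passenger complex, correcting wrong attachments. In dividing cells many of the checkpoint, activator and Aurora transcripts accumulate late in the cell cycle.

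Library totals ran from 29971171 to 36362421 counts, and the lowest count of any of the 38 genes in any library was 19. Levels are given as CPM (counts relative to library size, scaled between libraries by TMM), and fold changes are FKA over control on the log2 scale. Genes were called at an adjusted p under 0.05 in edgeR's quasi-likelihood test with Benjamini-Hochberg adjustment over all 13531 tested genes, and every adjusted p below comes from that test unless another is named. Changes are relative to the TMM scaling: scaling by library totals alone moved the median over all genes up by 0.16. All 10 myeloid genes listed to mark the line had reads in both groups, but several differed between them: CEBPA stood between 645 and 675 CPM with FKA and between 703 and 946 CPM in controls, whereas ITGAM stood at 41.3 to 55.0 CPM with FKA and 10.9 to 20.3 CPM in controls, CSF1R at 17.7 to 30.5 CPM with FKA and 1.73 to 2.26 CPM in controls, and CD14 at 0.901 to 1.35 CPM with FKA and 0.161 to 0.363 CPM in controls. Reads of 6 stromal markers, led by FN1, summed to 0.963, 49.9 and 45.9 CPM in FKA replicates 1 to 3 and to 10.0, 8.21 and 0.744 CPM in control replicates 1 to 3. B cell markers stayed at or under 0.547 CPM in sum, and CD3D at or under 0.0322 CPM. 5 epithelial markers summed to 12.9 to 18.8 CPM with FKA and to 19.2 to 21.8 CPM in controls, most of it KRT18, and the T and NK marker NKG7 stood at 9.29 to 9.67 CPM with FKA and at 21.2 to 24.2 CPM in controls. The part of these other-cell markers in the results below was not tested. The fit without FKA replicates 2 and 3 left out the libraries with the highest stromal sums. It does not even out stromal reads, as control replicates 1 and 2 (10.0 and 8.21 CPM) still exceed FKA replicate 1 (0.963 CPM). Nor does it remove the differences in NKG7 and the epithelial markers.

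FKA cells had far less RNA of nearly the whole checkpoint, activator and Aurora group. Differences in the core APC/C subunits were mostly smaller, with more falls than rises. Of the 24 checkpoint, regulator and Aurora genes, 23 fell and none rose, with a median log2 fold change of -3.43, and the exception was the G1 activator FZR1. Of the 14 core subunits, 6 fell, 2 rose and 6 were not called, with a median of -0.16 that was 0.0 with library totals. The 57.1% called in either direction were close to the share of all genes given next. Falls made up 42.9%, against 30.5% of all tested genes, and the 2 rises of 14 stand against 29.3%. Over all 38 genes 29 fell and 2 rose, or 81.6% called, where 59.8% of all tested genes were called, 30.5% lower and 29.3% higher, with a median of 0.01. At least 2-fold falls were called in 22 of the 24 genes and in 1 of the 14 core subunits, against 13.7% of all tested genes. With the replicate block the same numbers, 29 lower and 2 higher, were called, where 61.3% of all tested genes were. In 13 of the 24 genes the mean level with FKA was under 10% of the control mean. In bulk RNA, fewer cells passing through mitosis and less of these transcripts per cell cannot be told apart.

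**Figure D1:**
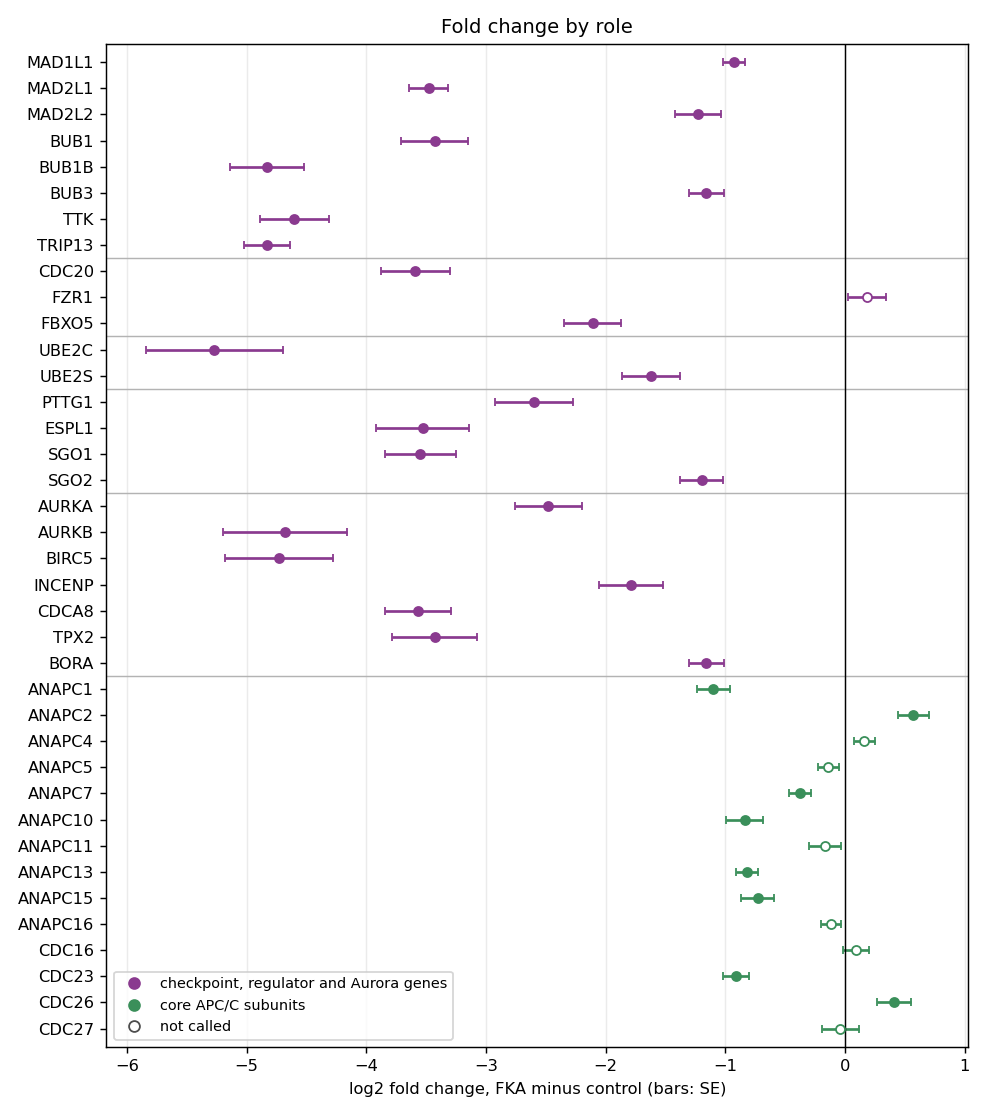
Log2 fold change of each gene, FKA minus control, with its SE (horizontal axis), ordered by role with the core APC/C subunits at the bottom; open points were not called. The checkpoint, regulator and Aurora genes spread from -5.27 (UBE2C) to -0.93 (MAD1L1) with FZR1 at 0.18, whereas the core subunits lie between -1.10 (ANAPC1) and 0.57 (ANAPC2).

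The summed levels per library also differed between the sets. Summed FPKM (counts relative to both library total and gene length, as deposited and so without the TMM scaling) of the 24 genes was 112, 122 and 107 in FKA replicates 1 to 3 and 286, 574 and 562 in control replicates 1 to 3. That of the 14 core subunits was 363, 342 and 347 with FKA and 349, 363 and 349 in controls, so that the groups overlapped. Divided by the TMM factors, the core sums were 344, 320 and 331 with FKA and 379, 369 and 373 in controls, and every FKA library lay below every control. The sums of the 24 genes were then 106, 115 and 102 with FKA and 310, 582 and 602 in controls. The ratio of the sum of the 24 genes to the core sum, which no scaling changes, was 0.309, 0.358 and 0.309 in FKA libraries and 0.819, 1.58 and 1.61 in control libraries. The groups did not overlap in this ratio, and control replicate 1 lay between the FKA libraries and the other controls.

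**Figure D2:**
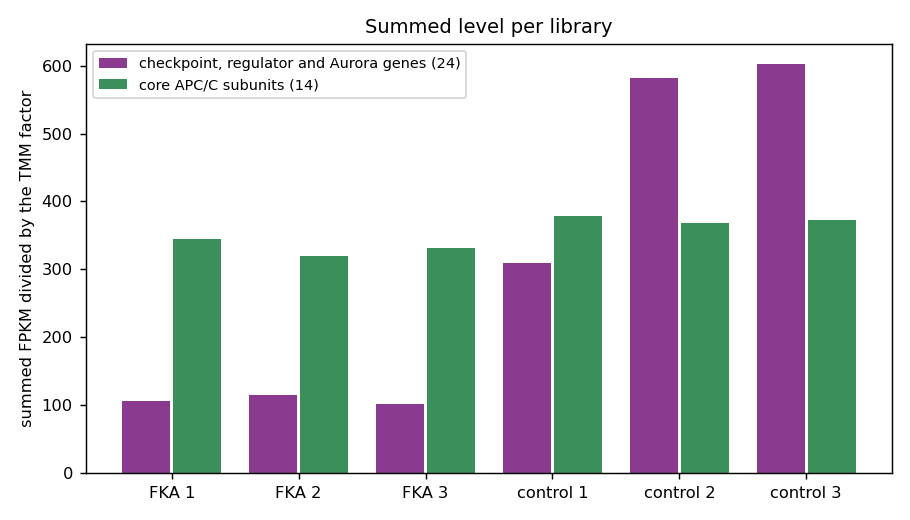
Summed FPKM divided by the TMM factor (vertical axis, from 0) of the 24 checkpoint, regulator and Aurora genes and of the 14 core APC/C subunits in each library. The core sum is 320 to 344 with FKA and 369 to 379 in controls, and the other sum is 102 to 115 with FKA and 310 to 602 in controls.

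Control replicate 1 stood apart from the other controls in these genes. It was the lowest control in 23 of the 24 checkpoint, regulator and Aurora genes, TRIP13 being the exception, and in 4 of the 14 core subunits, where 39.3% of all tested genes had it lowest. Its median offset from the mean of control replicates 2 and 3 was -0.98 on the log2 scale in the 24 genes, 0.01 in the core subunits and 0.01 over all tested genes. The offset was largest in AURKB (-1.91) and UBE2C (-1.84). In 23 of the 24 genes control replicate 1 still lay above every FKA library, and without that library the same number of genes, 23, was called lower, FZR1 again being the exception (30.3% of all genes tested in that fit were lower). The same library was the lowest control in 80 of the 90 tested genes of the surrounding pathway described at the end (88.9%), so this was not particular to the 24 genes. The within-batch difference was nearest to 0 in batch 1 in 23 of the 24 genes. Why this library differed was not tested.

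The promoters are shown as a description, and whether their letters bear on the changes in RNA was not tested. As background, many genes of late cell cycle phases carry a cell cycle genes homology region (CHR) near the transcription start, often next to CCAAT boxes. RefSeq promoter windows of build GRCh38.p14, 250 bases before to 50 after a start, were found for 32 of the 38 genes (49 windows), and none was used for AURKA, BIRC5, BUB3, TPX2, TTK or UBE2C. The build behind the counts is uncertain, so these coordinates belong to the RefSeq table and not to the count table. The windows of 2 genes that fell and of a core subunit that was not called were chosen after the motifs were seen, with CHR letters (TTTGAA or TTCGAA) and CCAAT letters in capitals on either strand. In CDC20 the CHR letters stand at -65 and, on the opposite strand, at -178, and CCAAT at -100 and -55, counted from the start to the first base. In CDCA8 they stand at -23 and overlap by 1 base with the last of 3 CCAAT boxes on the opposite strand. ANAPC5 has 1 CCAAT box, at -76, and no CHR letters in the window.
CDC20, chr1:43358731-43359030, plus strand: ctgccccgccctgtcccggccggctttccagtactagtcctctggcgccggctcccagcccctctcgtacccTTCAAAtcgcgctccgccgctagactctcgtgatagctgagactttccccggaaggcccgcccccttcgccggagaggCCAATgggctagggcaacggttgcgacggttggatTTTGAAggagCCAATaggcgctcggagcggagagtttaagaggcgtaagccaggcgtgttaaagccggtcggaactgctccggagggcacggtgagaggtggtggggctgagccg
CDCA8, chr1:37692266-37692565, plus strand: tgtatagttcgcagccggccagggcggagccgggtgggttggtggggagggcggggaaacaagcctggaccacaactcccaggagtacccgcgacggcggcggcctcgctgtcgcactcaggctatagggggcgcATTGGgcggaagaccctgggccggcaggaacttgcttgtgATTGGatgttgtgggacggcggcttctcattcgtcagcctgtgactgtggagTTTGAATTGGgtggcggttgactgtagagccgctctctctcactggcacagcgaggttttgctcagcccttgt
ANAPC5, chr12:121352362-121352661, minus strand: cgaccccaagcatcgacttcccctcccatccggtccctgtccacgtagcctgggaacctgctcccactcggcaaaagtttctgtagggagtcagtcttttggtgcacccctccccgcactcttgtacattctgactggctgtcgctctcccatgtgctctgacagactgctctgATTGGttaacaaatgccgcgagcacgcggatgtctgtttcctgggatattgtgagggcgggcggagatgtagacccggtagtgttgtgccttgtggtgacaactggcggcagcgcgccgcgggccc

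Among the genes with a window, CHR letters were present in 12 of 18 checkpoint, regulator and Aurora genes (66.7%) and in 3 of 14 core subunits (21.4%). They were present in 15.6% of the genes tested in these libraries, in 19.5% of all genes with a window and in 16.4% of all windows. Within 50 bases of the start they were present in 9 of the 18 genes (BUB1, BUB1B, CDCA8, ESPL1, FBXO5, INCENP, MAD2L1, SGO1 and TRIP13). At that distance 1 of the 14 core subunits (ANAPC1) and 4.8% of tested genes had them. CDC20, BORA and FZR1 have them only further from the start. The distance was chosen after seeing the data, so this contrast is not a test. CCAAT was found in 77.8% of the 18 genes, 42.9% of the core subunits, 42.8% of tested genes and 34.6% of all windows. TTNNCGC, the core letters of E2F sites, did not separate the sets, with 50% of the 18 genes, 57.1% of the core subunits, 43.4% of tested genes and 25.3% of all windows. FZR1, which was not called, has CHR letters in 1 of its windows, at -226. Conversely, AURKB (-4.68), PTTG1 (-2.60), UBE2S (-1.62), MAD2L2 (-1.23), SGO2 (-1.20) and MAD1L1 (-0.93) fell and have none in their windows. Among fallen core subunits ANAPC1, ANAPC10 and ANAPC7 have them, and CDC23, ANAPC13 and ANAPC15 do not. Genes with more than 1 window had more chances of a match, and a match is a description of the letters.

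The 2 activators of the APC/C parted. CDC20, the mitotic activator and the target of the checkpoint, had 5.13, 5.69 and 5.44 CPM in FKA replicates 1 to 3 and 37.2, 82.8 and 76.3 CPM in control replicates 1 to 3. Every FKA library lay below every control, and the log2 fold change was -3.59 (SE 0.286, edgeR adjusted p = 1.82e-05). FZR1, which encodes the G1 activator CDH1, had 44.1, 46.3 and 45.1 CPM with FKA and 30.3, 49.1 and 40.3 CPM in controls. The groups overlapped, and its log2 fold change of 0.18 (SE 0.158, edgeR adjusted p = 0.359) did not pass. Per gene length and without TMM scaling, CDC20 averaged 3.47 FPKM with FKA and 37.8 FPKM in controls, and FZR1 averaged 6.66 FPKM with FKA and 5.31 FPKM in controls. The order of the 2 activators by FPKM was thus turned round in every FKA library relative to every control library. FBXO5, which encodes EMI1, the inhibitor that keeps the APC/C off in S phase and G2, averaged 13.9 ± 1.84 CPM with FKA and 60.2 ± 20.7 CPM in controls (SD, n = 3 each; log2 fold change -2.11, edgeR adjusted p = 0.000111).

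**Figure D3:**
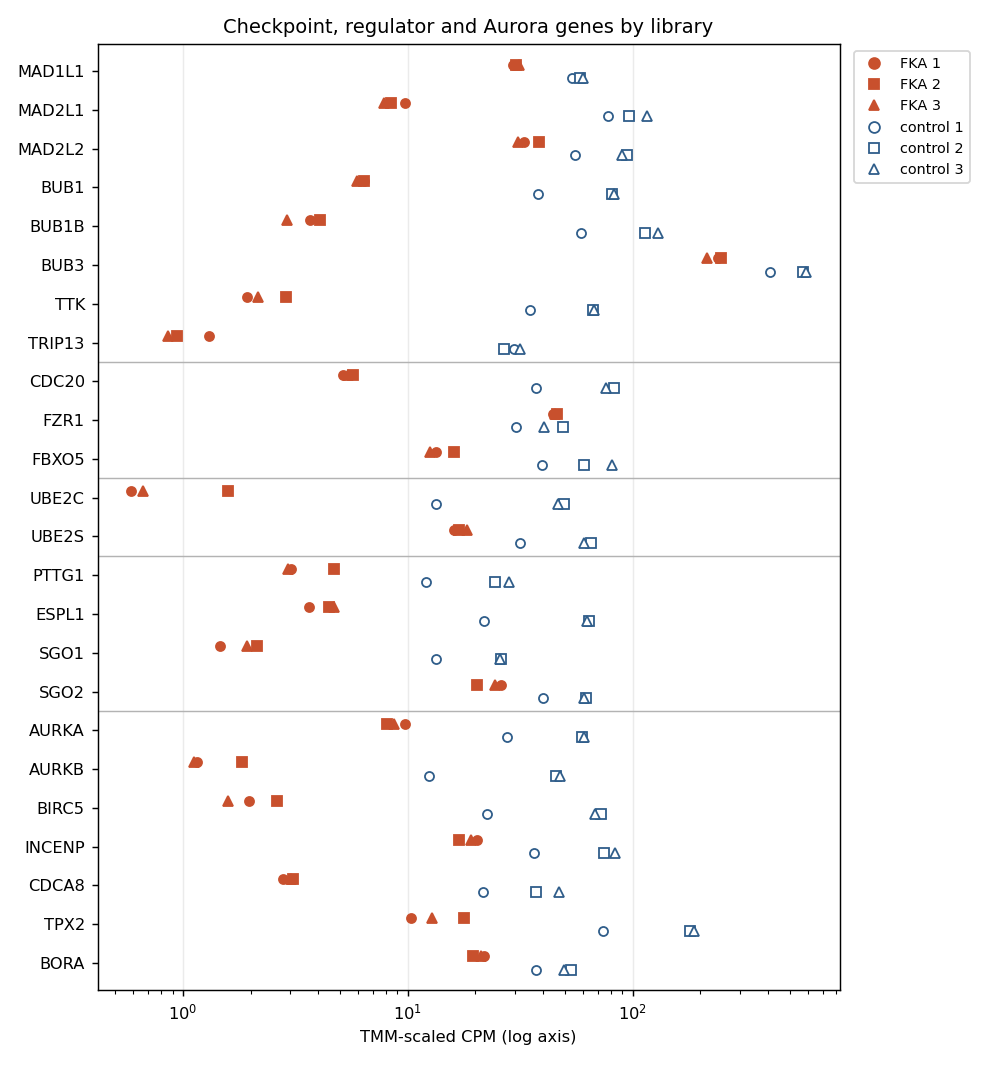
TMM-scaled CPM (log axis) of the 24 checkpoint, regulator and Aurora genes in each library, FKA filled and control open, with marker shapes for the replicate numbers and lines between roles. All genes apart from FZR1 have their 3 FKA libraries left of their 3 controls, and control 1 is the leftmost control in all but TRIP13.

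All 8 checkpoint genes fell, but by very different amounts. The kinase TTK (MPS1), which starts the checkpoint signal, had 1.93, 2.88 and 2.16 CPM with FKA and 35.1, 66.3 and 67.5 CPM in controls (log2 fold change -4.60, SE 0.291, edgeR adjusted p = 7.33e-06). BUB1B, which encodes BUBR1, a part of the inhibitor that captures CDC20, had 3.67, 4.06 and 2.91 CPM with FKA and 59.2, 113 and 130 CPM in controls (-4.83, SE 0.307, edgeR adjusted p = 7.57e-06). Both stood at under 10% of their control means, and their groups did not overlap. TRIP13, the ATPase that remodels MAD2 and takes the inhibitor apart, had 1.30, 0.938 and 0.863 CPM with FKA. It had 29.6, 26.9 and 31.7 CPM in controls and so was the only one of the 24 genes in which control replicate 1 was not the lowest control (log2 fold change -4.83, SE 0.189, edgeR adjusted p = 9.28e-07).

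MAD2L1, which encodes the checkpoint protein MAD2, had 9.72, 8.41 and 7.88 CPM with FKA and 77.7, 96.6 and 116 CPM in controls (log2 fold change -3.48, SE 0.166, edgeR adjusted p = 2.36e-06). The kinase BUB1, which recruits checkpoint proteins to kinetochores, averaged 6.23 ± 0.267 CPM with FKA and 67.4 ± 25.4 CPM in controls (-3.43, edgeR adjusted p = 2.23e-05). The other checkpoint genes fell less. MAD1L1, the binding partner that brings MAD2 to kinetochores, averaged 30.2 ± 0.949 CPM with FKA and 57.5 ± 3.33 CPM in controls (-0.93, edgeR adjusted p = 5.58e-05). BUB3, the abundant adaptor of BUB1 and BUBR1, averaged 234 ± 17.3 CPM with FKA and 523 ± 100 CPM in controls (-1.16, edgeR adjusted p = 0.000191). MAD2L2, a relative of MAD2 best known for DNA repair and translesion synthesis and also an inhibitor of the APC/C, averaged 34.1 ± 3.93 CPM with FKA and 79.8 ± 21.1 CPM in controls (-1.23, edgeR adjusted p = 0.000591).

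The ubiquitin-conjugating enzymes that work with the APC/C both fell. UBE2C, which starts ubiquitin chains on APC/C substrates, had 0.590, 1.59 and 0.662 CPM with FKA and 13.4, 49.3 and 46.6 CPM in controls. It had the largest fall of the 38 genes (log2 fold change -5.27, SE 0.574, edgeR adjusted p = 9.02e-05). Its SE was also the largest of the 38. FKA replicate 2 held more than the other FKA libraries, and without it the log2 fold change was -5.85. UBE2S, which extends the chains, averaged 17.1 ± 1.21 CPM with FKA and 52.5 ± 18.5 CPM in controls (-1.62, edgeR adjusted p = 0.000499).

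The genes of chromosome separation fell as well. Securin (PTTG1), the inhibitor of separase that the APC/C destroys, had 3.04, 4.72 and 2.93 CPM with FKA and 12.1, 24.5 and 28.1 CPM in controls (log2 fold change -2.60, edgeR adjusted p = 0.000192). Separase itself (ESPL1), the protease that cuts cohesin, had 3.63, 4.47 and 4.72 CPM with FKA and 21.8, 63.7 and 62.9 CPM in controls (-3.53, edgeR adjusted p = 9.15e-05). In both genes control replicate 1 was the control nearest to the FKA libraries, which all lay lower. SGO1, which protects centromeric cohesin in mitosis, averaged 1.84 ± 0.342 CPM with FKA and 21.6 ± 7.25 CPM in controls (-3.55). Its relative SGO2 averaged 23.6 ± 2.90 CPM with FKA and 54.4 ± 12.4 CPM in controls (-1.20, edgeR adjusted p = 0.000435).

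All 7 genes of the Aurora kinases and the chromosomal passenger complex fell, with a median log2 fold change of -3.43. AURKB, the kinase of the passenger complex, had 1.15, 1.84 and 1.12 CPM with FKA and 12.4, 45.6 and 47.3 CPM in controls (-4.68, SE 0.519, edgeR adjusted p = 9.97e-05). Survivin (BIRC5), the subunit that docks the complex on centromeres, had 1.96, 2.63 and 1.58 CPM with FKA and 22.5, 72.4 and 67.9 CPM in controls (-4.73, SE 0.453, edgeR adjusted p = 4.8e-05). Both genes had their lowest control in replicate 1, at several times the highest FKA library. Borealin (CDCA8) averaged 2.97 ± 0.156 CPM with FKA and 35.3 ± 12.9 CPM in controls (-3.57). INCENP, the scaffold that binds the other subunits, fell less, averaging 18.8 ± 1.81 CPM with FKA and 64.9 ± 25 CPM in controls (-1.79, edgeR adjusted p = 0.000497).

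AURKA, the kinase of the spindle poles, had 9.72, 8.06 and 8.72 CPM with FKA and 27.6, 59.7 and 60.6 CPM in controls (log2 fold change -2.48, SE 0.279, edgeR adjusted p = 0.000105). TPX2, which activates Aurora A on spindle microtubules, had 10.3, 17.7 and 12.8 CPM with FKA and 73.6, 179 and 188 CPM in controls (-3.43, edgeR adjusted p = 7.24e-05). Neither gene had overlapping groups. BORA, a cofactor with which Aurora A activates PLK1, averaged 20.8 ± 1.23 CPM with FKA and 46.6 ± 8.52 CPM in controls (-1.16, edgeR adjusted p = 0.000174). In the GENCODE 29 annotation 37.0% of the exonic bases of BORA also lie in exons of DIS3 on the other strand, which averaged 168 ± 6.10 CPM with FKA and 205 ± 33.5 CPM in controls and was not called. As the use of strand in counting is not given in the sources used here, reads of this pair cannot be told apart.

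Of the core APC/C subunits 6 were called lower and 2 higher, with log2 fold changes between -1.10 and 0.57. ANAPC1 and CDC23 fell about as much as MAD1L1 (-0.93), which had the smallest called fall of the 24 other genes. ANAPC1, the largest scaffold subunit, had 66.0, 52.4 and 70.5 CPM with FKA and 152, 116 and 138 CPM in controls. Its log2 fold change of -1.10 (SE 0.136, edgeR adjusted p = 0.000172) was the only core fall of at least 2-fold. CDC23, a scaffold subunit with tetratricopeptide repeats, averaged 29.1 ± 1.18 CPM with FKA and 54.7 ± 5.98 CPM in controls (-0.91). ANAPC10, which helps to bind substrate degrons, averaged 9.34 ± 0.756 CPM with FKA and 16.7 ± 2.34 CPM in controls (-0.84, edgeR adjusted p = 0.00137). The small subunit ANAPC13 averaged 24.5 ± 1.44 CPM with FKA and 43.2 ± 0.754 CPM in controls (-0.82), and ANAPC15, which promotes release of the checkpoint complex from the APC/C, averaged 8.54 ± 0.536 CPM with FKA and 14.1 ± 1.15 CPM in controls (-0.73). ANAPC7, another repeat subunit, fell by 0.38 (edgeR adjusted p = 0.00629), and missed the threshold with library totals (-0.23, edgeR adjusted p = 0.0597). Without FKA replicates 2 and 3, ANAPC7 (edgeR adjusted p = 0.0523) and ANAPC15 (edgeR adjusted p = 0.0627) were not called.

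ANAPC2, the cullin-like subunit that forms the catalytic module, rose. It had 37.1, 33.6 and 33.2 CPM with FKA and 27.4, 21.8 and 20.6 CPM in controls, with no overlap (log2 fold change 0.57, SE 0.130, edgeR adjusted p = 0.00473). Its RING partner ANAPC11 had 27.0, 22.1 and 29.7 CPM with FKA and 26.5, 31.4 and 30.7 CPM in controls, with overlapping groups (-0.17, edgeR adjusted p = 0.305). CDC26, a small subunit that stabilises CDC16, had 13.5, 12 and 14.7 CPM with FKA and 9.91, 9.56 and 10.9 CPM in controls (0.41, SE 0.142, edgeR adjusted p = 0.0338). The call of CDC26 was near the threshold. It was lost without FKA replicate 1 (edgeR adjusted p = 0.0838) or 3 (0.113), without control replicate 1 (0.0607), 2 (0.104) or 3 (0.0532), and without a filter on low counts (0.0833).

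The other core subunits did not pass. ANAPC5, the most abundant by FPKM, had 292, 266 and 284 CPM with FKA and 320, 292 and 317 CPM in controls (log2 fold change -0.14, edgeR adjusted p = 0.192). The small subunit ANAPC16 stood at -0.12 (edgeR adjusted p = 0.234), the repeat subunit CDC16 at 0.09 (0.487) and CDC27, which docks the activators, at -0.04 (0.822). ANAPC5 and ANAPC16 changed sign with library totals (0.02 and 0.04), and CDC27 with both library totals (0.11) and upper-quartile scaling (0.03). ANAPC4, a scaffold subunit, stood at 0.16 (edgeR adjusted p = 0.127) but was called when library totals (0.32, edgeR adjusted p = 0.0118) or upper quartiles (0.23, edgeR adjusted p = 0.0428) set the scale. Levels per gene length, without TMM scaling, ran over a like range in both groups, with ANAPC5 highest at 111 FPKM with FKA and 109 FPKM in controls and ANAPC15 and ANAPC10 lowest, at 2.39 and 2.38 FPKM with FKA and at 3.54 and 3.83 FPKM in controls. Subunits of 1 complex thus differed widely in RNA level in both groups.

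**Figure D4:**
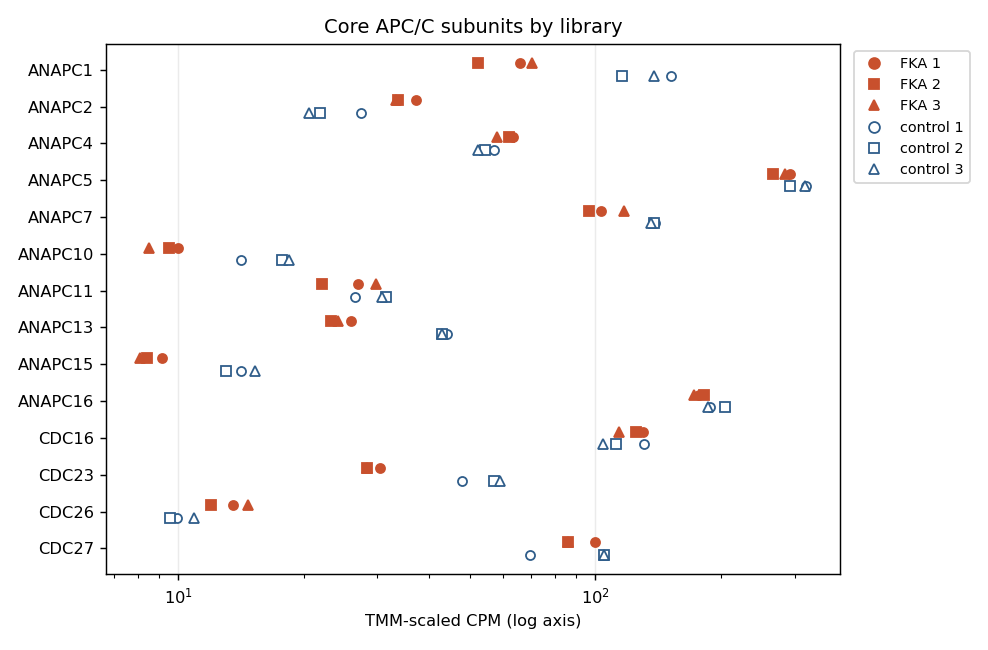
TMM-scaled CPM (log axis) of the 14 core APC/C subunits in each library, FKA filled and control open, with marker shapes for the replicate numbers. ANAPC1, CDC23, ANAPC13, ANAPC10, ANAPC15 and ANAPC7 have their FKA libraries left of the controls, as do, narrowly, ANAPC16 and ANAPC5. ANAPC2, CDC26 and, narrowly, ANAPC4 have them right of the controls, and CDC27, ANAPC11 and CDC16 overlap.

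The FKA and control libraries did not overlap in 23 of the 24 checkpoint, regulator and Aurora genes and in 11 of the 14 core subunits, where 67.3% of all tested genes had no overlap. All 31 called genes had a difference of 1 sign in the 3 batches. For CDC26, the exonic overlap with PRPF4 on the other strand was 17.7% of its exonic bases, and PRPF4 was not called. For ANAPC10 it was 10.4% with ABCE1, an abundant gene that fell (-1.53, edgeR adjusted p = 0.000135), and for TRIP13 5.11% with BRD9, which fell by 0.65. ANAPC10 also shared 22.6% with AC098588.1 on the same strand, which is absent from the deposited counts. Other overlaps with the opposite strand include ANAPC15 with LRTOMT (27.1%), SGO1 with SGO1-AS1 (17.7%) and ANAPC13 with CEP63 (13.0%). LRTOMT averaged 0.201 CPM with FKA and 0.188 CPM in controls, SGO1-AS1 averaged 2.7 counts, and CEP63 was not called. Processed pseudogenes or close copies are annotated for BUB1, BUB3, CDC20, ANAPC10, CDC27, UBE2C, UBE2S, PTTG1, SGO1 and AURKA, and an unprocessed pseudogene for ANAPC1, so reads shared with these copies are uncertain.

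Ratios between related genes were compared within each library, where scaling between libraries plays no part. 8 pairs were compared, and with 3 libraries against 3 the exact two-sided permutation test cannot give a p under 0.1, which was the p of every pair, raw and after adjustment over the 8 pairs. The log2 FPKM ratio of CDC20 to FZR1 was -0.99, -0.91 and -0.93 in FKA replicates 1 to 3 and 2.41, 2.87 and 3.04 in control replicates 1 to 3, a difference of -3.72. That of UBE2C to UBE2S was -3.29, -1.93 and -3.32 with FKA and 0.25, 1.06 and 1.10 in controls, a difference of -3.65. In both pairs the sign of the ratio was turned in all libraries. The ratio of SGO1 to SGO2 differed by -2.33 and that of MAD2L1 to MAD2L2 by -2.27, the first gene of each pair being the one with the larger fall.

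The ratio of AURKA to AURKB was 2.31, 1.36 and 2.19 with FKA and 0.39, -0.38 and -0.41 in controls, a difference of 2.09, so that Aurora A transcripts outnumbered those of Aurora B per gene length in all FKA libraries. The ratio of BUB1 to BUB1B differed by 1.42 (mean 0.79 ± 0.187 with FKA and -0.63 ± 0.0947 in controls). The ratio of the inhibitor FBXO5 to the activator CDC20 differed by 1.45, with a mean of 0.81 ± 0.145 with FKA and -0.64 ± 0.309 in controls (SD, n = 3 each). Securin over separase (PTTG1 to ESPL1) changed least, with 2.02, 2.36 and 1.59 with FKA and 1.43, 0.90 and 1.11 in controls, a difference of 0.84.

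**Figure D5:**
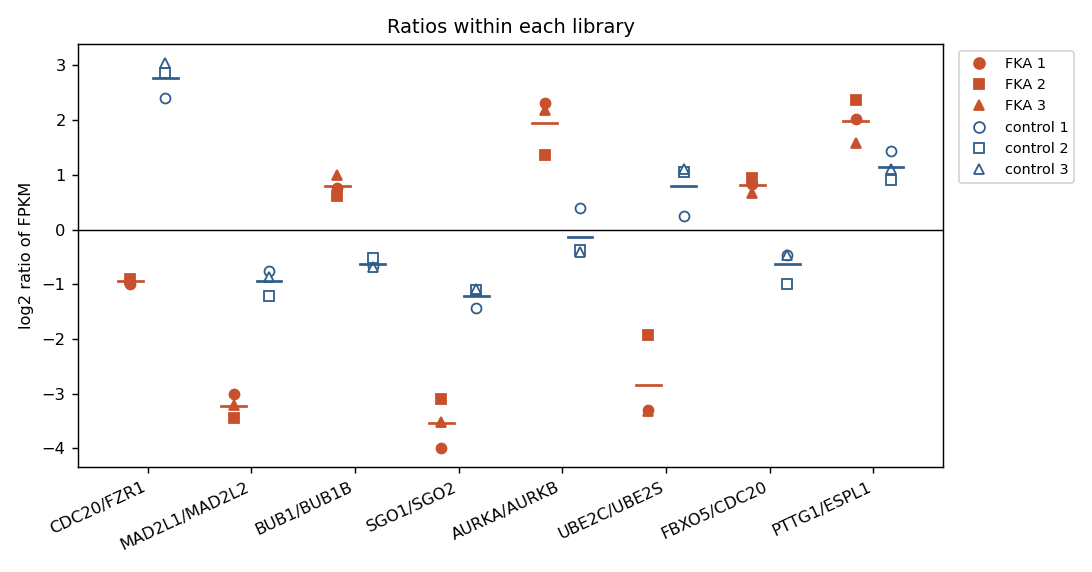
Log2 ratio of FPKM of 8 gene pairs in each library (vertical axis), FKA left and filled, control right and open, with a bar at each mean. The groups are apart in every pair, with differences of the means from -3.72 (CDC20/FZR1) to 2.09 (AURKA/AURKB).

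The surrounding pathway was read from 5 further lists, to be set against the 59.8% of all tested genes called, 30.5% lower and 29.3% higher. All 25 genes of a list made up mostly of known APC/C substrates were lower (median log2 fold change -3.68), and control replicate 1 was the lowest control in all 25, with a median offset of -1.19. This list was led by the ribonucleotide reductase subunit RRM2 (0.657 ± 0.158 CPM with FKA and 127 ± 34.5 CPM in controls, -7.59) and the transcription factor FOXM1 (1.41 ± 0.409 CPM with FKA and 86.2 ± 39.3 CPM in controls, -5.94). The smallest fall was that of SKP2 (-0.38). Of 18 tested checkpoint and kinetochore partners, 16 fell (88.9%) and none rose (median -3.27), with the NDC80 complex subunits SPC24 (-5.80) and SPC25 (-5.12) at the front. MAD2L1BP, the adaptor through which TRIP13 acts on MAD2, stood at 0.19 (edgeR adjusted p = 0.155), in contrast to TRIP13 itself, and the nuclear pore protein TPR was not called.

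Of 21 Aurora partners and substrates, 16 fell (76.2%) and 1 rose (median -1.39). The cytokinesis kinesin KIF23 (1.52 ± 0.786 CPM with FKA and 52.9 ± 27.9 CPM in controls, -5.13) and CEP55 (-4.76) fell most, and PPP1R2, an inhibitor of protein phosphatase 1, rose by 0.27 (edgeR adjusted p = 0.0388). Of 19 genes of cohesin and its regulators, 10 fell and 2 rose (median -0.32), and the 63.2% called were near the 59.8% of all tested genes. The acetyltransferase ESCO2 (-5.95) and sororin (CDCA5, -5.13) fell most, the ring subunits SMC3 (-1.11), SMC1A (-0.88) and RAD21 (-0.54) fell less, and the phosphatase 2A subunits PPP2R5D (0.58) and PPP2R5A (0.39) rose. Of 16 APC/C modulators and other ubiquitin enzymes, 9 fell, 8 with the replicate block, and 2 rose (median -0.30), so that 68.8% were called against 59.8% of all tested genes. FBXO43, a relative of EMI1 known from oocytes, went to 0.181 ± 0.076 CPM with FKA, against 12.6 ± 6.15 CPM in controls (-6.09), and the mitotic kinase CDK1 fell by 4.34. The deubiquitinase OTUD7B (Cezanne), which opposes the APC/C by removing its ubiquitin chains, rose by 0.85 (60.3 ± 2.96 CPM with FKA and 33.5 ± 5.55 CPM in controls, edgeR adjusted p = 0.000515), and CUEDC2 rose by 0.35. Several genes stand in more than 1 of these lists, and the lists share their libraries with the genes above.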

How the data were processed

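RNA sequencing of 3 FKA and 3 control MV4;11 libraries was grouped by the sample titles. The authors deposited whole-number read counts per gene and FPKM values for the same 21857 genes. The deposited FPKM equalled the count over the library total and 1 length per gene (largest relative spread 8.45e-07). Aligner, counter and strand setting: not given in the sources used here. GRCm38 and mm10, which name mouse builds, stand in the submitters' processing notes, whereas the symbols are human, so the build is uncertain.

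Counts were tested in R 4.3.3 with edgeR 4.0.16: filterByExpr (13531 genes), TMM, quasi-likelihood F test, Benjamini-Hochberg over all kept genes. SE is the log2 fold change over the square root of F. The batch label pairs the libraries (correlations of deviations 0.11, 0.43 and -0.08 in batches 1 to 3), and the test was run without and with the batch as a block. The edgeR step was tested on simulated data, where 144 of 200 changed genes were recovered (72%) and 10 of 12762 unchanged genes were called. The simulation changed 200 of 12960 genes, whereas 59.8% of genes were called in the real data. It therefore does not show how the test behaves when so many genes differ. Pair ratios used SciPy 1.17.1. Alternatives were other scalings and filters, DESeq2 1.42.0, limma 3.58.1 on log2(FPKM + 1) and log2(FPKM + 0.1), and leaving out libraries. Leaving out FKA replicates 2 and 3 was added after seeing the data.

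All 38 genes are named, and of each pathway list the 2 largest falls and rises among called genes, plus SKP2, MAD2L1BP, TPR, SMC3, SMC1A, RAD21 and the genes that overlap a member, which were named after their values were seen. The genes and lists were chosen with earlier results of these data known. Promoter windows came from RefSeq and gene overlaps from GENCODE 29. Markers of erythroid cells and protein sequences were not analysed here.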

Additional observations from a re-analysis of the deposited data

How the results depend on the processing

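The 29 lower genes of the 38 were 29 under RLE and upper-quartile scaling, DESeq2, both other filters and the replicate block, 28 with library totals and with limma on FPKM values, 29 without each single library, and 27 without FKA replicates 2 and 3. The 23 called checkpoint, regulator and Aurora genes numbered 23 in all of these fits. The 2 higher genes, both core subunits, were 1 without a filter, 1 without FKA replicates 2 and 3, and 1 to 2 without single libraries. With library totals, upper-quartile scaling or limma they were 3. The 8 called core subunits were 7 to 8 without single libraries and 5 without FKA replicates 2 and 3, where 1 FKA library is assumed to vary like the controls. Across the transcriptome 8090 calls became 8289 with the replicate block, 7090 to 8193 without single libraries and 4619 without FKA replicates 2 and 3. With the replicate block 29 of the 38 genes were lower and 2 higher, so it changed no call among them; of the pathway genes UBE2D3 lost its call (edgeR adjusted p = 0.0519). Relative to 3959 higher and 4131 lower genes, library totals gave 4993 and 3282.

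Log2 fold changes that changed sign belonged to 3 core subunits that were not called in any fit. ANAPC5 stood at 0.02 and ANAPC16 at 0.04 with library totals and with limma on FPKM values. CDC27 stood at 0.11 with library totals, 0.03 with upper-quartile scaling, 0.13 and 0.14 with limma at pseudocounts of 1 and 0.1, -0.22 to 0.04 without single libraries, and 0.09 without FKA replicates 2 and 3. The cause was not tested beyond the shift of all genes by the scaling. Of the 38 genes, 37 had at least 30 counts in every library. Leaving out single libraries turned no pair ratio.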
